A study of Mus musculus with 16 samples.

Results

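The genes described here are the cytosolic ribosomal proteins of the mouse, the Rps proteins of the small subunit, the Rpl proteins of the large subunit and the stalk proteins Rplp0, Rplp1 and Rplp2. Members were taken from the expression table by the form of the gene symbol, without the symbols that mark pseudogenes, which gave 80 of 25965 genes, 31 of them for the small subunit, 46 for the large subunit and 3 for the stalk. Their level was measured in 9 RNA sequencing libraries of wild-type C57BL/6 oocytes, with 2 libraries (A and B) in each of 4 diameter classes (10–30 µm, then 40–45 µm, then 50–55 µm and last 60–65 µm) and 1 library of germinal vesicle (GV) oocytes. The age ranges of the pre-pubertal mice rose with the size class, with overlap between neighbouring classes, so size and age of the mouse cannot be told apart. DNA methylation was measured in 6 libraries by reduced representation bisulphite sequencing (RRBS), 2 for each of the 3 larger classes, and in 1 library of 60–65 µm oocytes by post-bisulphite adapter tagging (PBAT). Each library was a pool of oocytes that had been picked by hand and freed of somatic cells, and nothing in the sources used here states that A and B came from separate mice, so p-values measure only the spread between these libraries, which may be technical.

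A ribosome is built from ribosomal RNA and a fixed set of proteins, most of them present as a single copy in each particle. Growing oocytes are known for making and storing ribosomes on a large scale, since the early embryo depends on those laid down in the egg. The mRNAs of ribosomal proteins are the best known TOP mRNAs, so called because they begin with a C followed by an unbroken run of pyrimidines (C or T in DNA), the terminal oligopyrimidine tract. Through this tract their translation is raised or lowered together by the mTORC1 kinase pathway and the cap-binding protein LARP1.

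Pyrimidine runs near the annotated gene starts were more frequent in members than in all promoters. Any run within 25 bases on either side of the start counted, whatever its first base, so these are not counts of TOP tracts. RefSeq promoter sequences (build GRCm38.p6) were matched by symbol for 59 of the 80 members and 21 had no entry. A run of at least 8 pyrimidines lay within 25 bases of the start in 29 of the 59 (49.2%), against 19.7% of all 32851 promoters and 17.8% of the 7290 other genes with enough expression to be tested. The median longest run there was 7 bases in members and 5 in all promoters. The sequences below run from 25 bases before the annotated start to its 20th base, 5′ to 3′, and the capitals mark the longest pyrimidine run within 25 bases of the start, as far as it falls inside the printed window. Rpl7a, Rpl27a and Rpl15 are shown for their long runs, and Rps12 because it had the highest level of all members. Rps23 had the largest fall during growth, Rpl39l and Rpl10l had no called change and Rpl3l was at 0 in every library.
Rpl7a: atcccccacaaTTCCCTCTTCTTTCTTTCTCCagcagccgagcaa
Rpl27a: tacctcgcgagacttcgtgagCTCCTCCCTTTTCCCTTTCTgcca
Rpl15: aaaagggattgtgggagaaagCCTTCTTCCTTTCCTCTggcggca
Rps12: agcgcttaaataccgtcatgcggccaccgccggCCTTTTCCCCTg
Rps23: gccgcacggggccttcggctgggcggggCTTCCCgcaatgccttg
Rpl39l: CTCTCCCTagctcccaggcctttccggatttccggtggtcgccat
Rpl10l: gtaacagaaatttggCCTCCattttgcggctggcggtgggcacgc
Rpl3l: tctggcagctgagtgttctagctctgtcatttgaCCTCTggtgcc

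In GRCm38.p6 coordinates the window of Rpl7a is chr2:26910782-26910826 on the plus strand, that of Rpl27a chr7:109519170-109519214 on the plus strand, that of Rpl15 chr14:18270967-18271011 on the minus strand and that of Rps12 chr10:23787190-23787234 on the minus strand. The window of Rps23 is chr13:90923097-90923141 on the plus strand, that of Rpl39l chr16:10170203-10170247 on the plus strand, that of Rpl10l chr12:66284382-66284426 on the minus strand and that of Rpl3l chr17:24727801-24727845 on the plus strand. The longest run was 21 bases in Rpl7a, 20 in Rpl27a, 17 in Rpl15 and 11 in Rps12, and it was 6 bases in Rps23, 8 in Rpl39l and 5 in Rpl10l and Rpl3l. Annotated starts can differ from the start used in oocytes, so a short run says only that these letters are not in this window.

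Other motifs were counted in the same promoters, from 250 bases before to 50 after the start and on both strands unless stated. CTTCCG, or CGGAAG on the other strand, the core bound by ETS family factors, was found in 40 of 59 members (67.8%), 34.7% of the other tested genes and 16.9% of all promoters. The palindrome CTCGCGAG was found in 6 members (10.2%), 2.21% of the other tested genes and 0.919% of all promoters. TATAA, searched only on the gene's strand from 40 to 16 bases before the start, was found in 4 members (6.78%), 1.76% of the other tested genes and 3.52% of all promoters. In the 67 promoters of mitochondrial ribosomal proteins the shares were 23.9% for the pyrimidine run, 53.7% for CTTCCG or CGGAAG, 1.49% for CTCGCGAG and 0 for TATAA.

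Ribosomal protein mRNAs took a smaller share of the measured transcriptome at each larger size. The values are RPKM, which are read numbers divided by the length of the gene and the size of the library, and the summed RPKM of the 80 members was 3605 and 2803 RPKM at 10–30 µm, 2208 and 2235 at 40–45 µm, 1740.2 and 1614 at 50–55 µm, 1552 and 1587 at 60–65 µm and 1339.8 in GV oocytes. As a percentage of all RPKM in the library this was 3.81 and 3.01 at 10–30 µm, 2.34 and 2.36 at 40–45 µm, 1.85 and 1.74 at 50–55 µm, 1.65 and 1.69 at 60–65 µm and 1.45 in GV oocytes. Neighbouring size classes did not overlap in this share, and the lowest value was that of the GV library. The class means were 3.41% ± 0.569 (SD, n = 2), 2.35% ± 0.0133, 1.80% ± 0.0773 and 1.67% ± 0.0272. The mean at 60–65 µm was 0.489 times that at 10–30 µm, and the steps were 0.689, 0.764 and 0.928 times the class before. RPKM gives the part of a library that a gene takes, so less RNA from these genes and more RNA from the rest of the growing oocyte cannot be told apart.

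**Figure D1:**
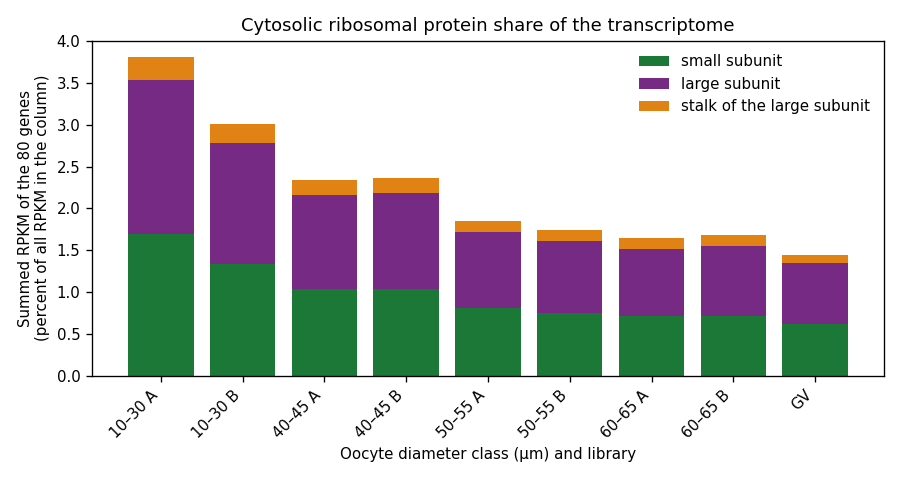
Summed RPKM of the 80 cytosolic ribosomal protein genes as a percentage of all RPKM (y axis) in each of the 9 RNA libraries (x axis, diameter class in µm and library letter), with bars divided into small subunit, large subunit and stalk. The whole bar is highest in 10–30 µm library A (3.81%) and lowest in GV oocytes (1.45%).

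The summed share spread most between libraries at 10–30 µm, where 75 of the 80 members were higher in library A than in library B. The median log2 ratio of A to B there was 0.33 over the 79 members that could be tested and -0.06 over all tested genes. In the other classes 37, 54 and 19 of the 80 members were higher in A. Reads assigned to genes, recovered from the steps of the RPKM values, came to 23220478 in 10–30 µm library A, the shallowest, and up to 47914615 in the other growing classes and 53958182 in GV. Members above the expression minimum had from 143 (Rpl9) to 18990 (Rplp0) reads in a library.

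All 12 oocyte markers, among them the zona pellucida genes Zp1, Zp2 and Zp3, passed the expression minimum, with a summed level between 3058 and 4061 RPKM in the growing classes. Markers of other ovarian cells were low beside the summed level of the members in the same libraries. The 9 theca and stroma markers summed to 3.95 and 2.84 RPKM at 10–30 µm, 1.82 and 0.773 at 40–45 µm, 0.910 and 0.547 at 50–55 µm, 1.20 and 1.17 at 60–65 µm and 0.625 in GV oocytes, of which 3 (Col1a1, Col1a2 and Col3a1) passed the minimum and were called lower over growth, as most members were. Their sum was highest in 10–30 µm library A, the library with the highest member share, and their part in the result was not tested. The 14 granulosa markers summed to 2.69–2.98 RPKM at 10–30 µm and 8.59–9.02 at 60–65 µm, and the 4 of them past the minimum (Inha, Nr5a2, Cyp19a1 and Krt8) were called higher. The 4 endothelial markers summed to 1.06–1.17 and 5.34–5.93 RPKM, and the 2 past the minimum (Tek and Pecam1) were called higher. None of the 5 immune or 3 blood markers passed, with sums of at most 0.366 and 0.235 RPKM, and Cd14 was at 0 in every library.

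Over the whole of growth nearly all members fell. Differences were tested with limma on log2(RPKM + 0.1) over the 8 growing libraries, for genes of at least 0.5 RPKM in at least 2 of them, with Benjamini-Hochberg adjustment over all 10518 such genes and a threshold of 0.05. Of the 80 members 79 passed this minimum. Between 10–30 and 60–65 µm, 75 of the 79 were called lower and 0 higher, where 31.5% of all tested genes were called lower and 31.8% higher. The median log2 difference of the members was -1.06, which is 0.479-fold, beside 0.00 for all tested genes. All 31 members of the small subunit were called (median log2 difference -1.11), 41 of the 45 tested members of the large subunit (-0.98) and all 3 stalk proteins (-0.91). Both 10–30 µm libraries lay above both 60–65 µm libraries in 76 of the members, as they did in 41.9% of all tested genes. Leaving out any 1 library left between 69 and 76 members called.

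**Figure D2:**
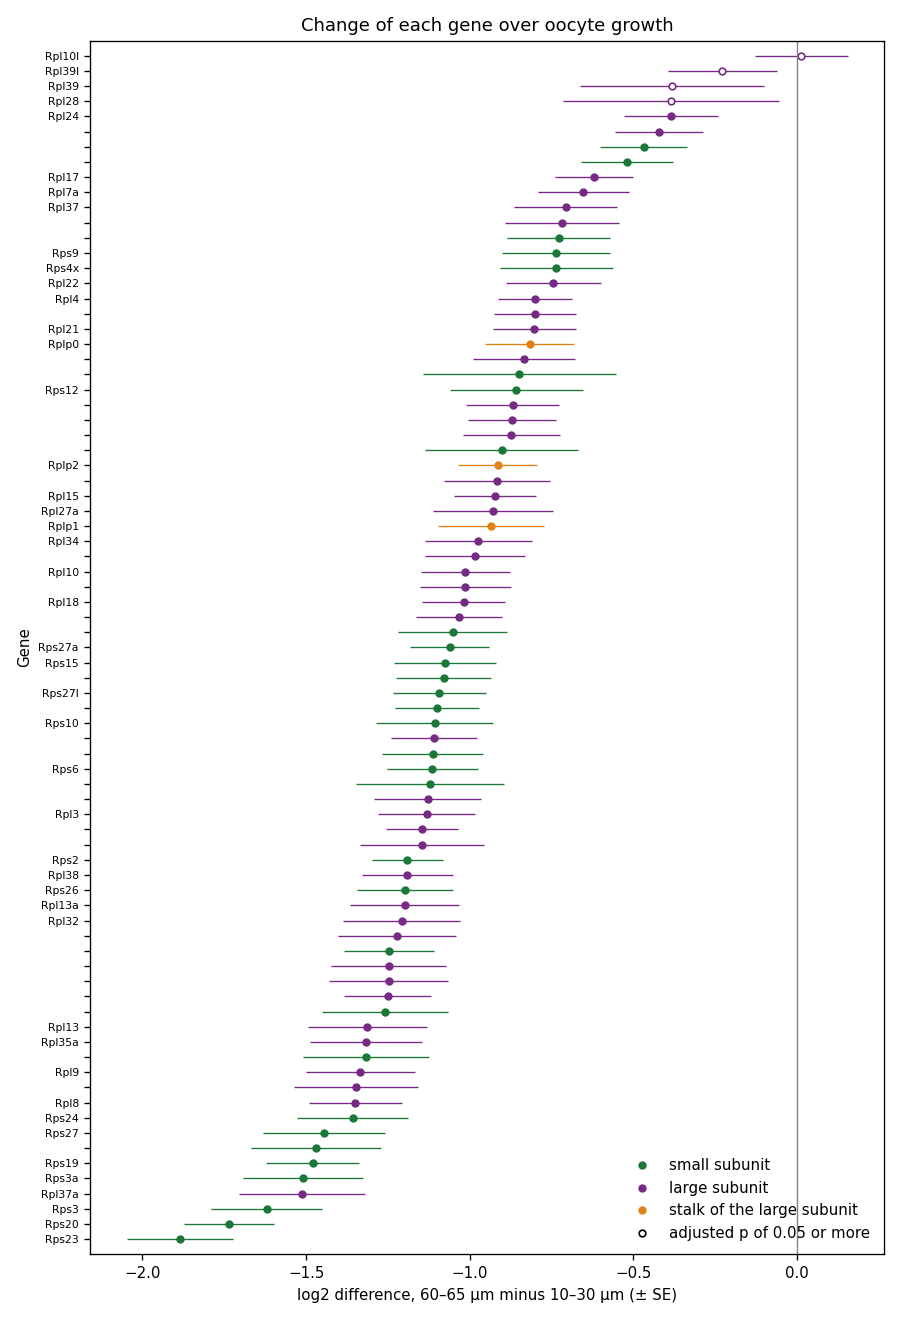
log2 difference between 60–65 and 10–30 µm oocytes (x axis, limma estimate with SE) for each of the 79 tested genes (y axis), ordered by size and coloured by subunit, with names for genes described in the text and open points for an adjusted p of 0.05 or more. The estimates run from -1.89 for Rps23 to 0.01 for Rpl10l, and the 4 open points are Rpl28, Rpl39, Rpl39l and Rpl10l.

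The 3 largest falls were in small subunit proteins. Rps23, which lies by the decoding centre and is needed for accurate translation (annotated at chr13:90923131-90924942, plus strand), was at 137 and 107 RPKM at 10–30 µm, 88.3 and 89.2 at 40–45 µm, 52.7 and 52.3 at 50–55 µm, 29.3 and 36.02 at 60–65 µm and 15.4 in GV oocytes. Its level dropped at every step, and no library of a larger class reached any library of a smaller one. The log2 difference over growth was -1.89 ± 0.16 (SE, adjusted p = 3.1e-05). Rps20, a protein of the head of the small subunit, was at 22.8 and 18.5 RPKM at 10–30 µm, 10.96 and 11.5 at 40–45 µm, 7.73 and 6.89 at 50–55 µm, 5.92 and 6.23 at 60–65 µm and 4.55 in GV oocytes. The log2 difference was -1.74 ± 0.14 (SE, adjusted p = 2.1e-05), and the step between the first pair of classes was the largest. Rps3, which lines the mRNA entry channel and also acts in DNA repair, was at 19.5 and 14.3 RPKM at 10–30 µm, 9.45 and 8.92 at 40–45 µm, 6.67 and 5.81 at 50–55 µm, 5.21 and 5.47 at 60–65 µm and 3.83 in GV oocytes. It fell by 1.62 on the log2 scale, with an SE of 0.17 and an adjusted p of 8.2e-05.

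The other 3 of the 6 largest falls came from both subunits. Rpl37a, a zinc-binding protein of the large subunit, was at 107 and 72.3 RPKM at 10–30 µm, 55.3 and 54.7 at 40–45 µm, 37.6 and 32.8 at 50–55 µm, 29.4 and 31.7 at 60–65 µm and 21.5 in GV oocytes, a log2 difference of -1.51 ± 0.19 (SE, adjusted p = 0.00023). Rps3a was at 9.74 and 6.89 RPKM at 10–30 µm, 3.84 and 3.58 at 40–45 µm, 2.97 and 2.66 at 50–55 µm, 2.62 and 2.999 at 60–65 µm and 2.48 in GV oocytes, with a log2 difference of -1.51 ± 0.18 (SE, adjusted p = 0.00018). Rps19, a protein of the head of the small subunit whose human counterpart is mutated in Diamond-Blackfan anaemia, was at 3.74 and 2.97 RPKM at 10–30 µm, 1.82 and 1.89 at 40–45 µm, 1.33 and 1.26 at 50–55 µm, 1.07 and 1.18 at 60–65 µm and 0.879 in GV oocytes, a log2 difference of -1.48 ± 0.14 (SE, adjusted p = 5.4e-05). In all 3 genes both 10–30 µm libraries stood above every later library.

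**Figure D3:**
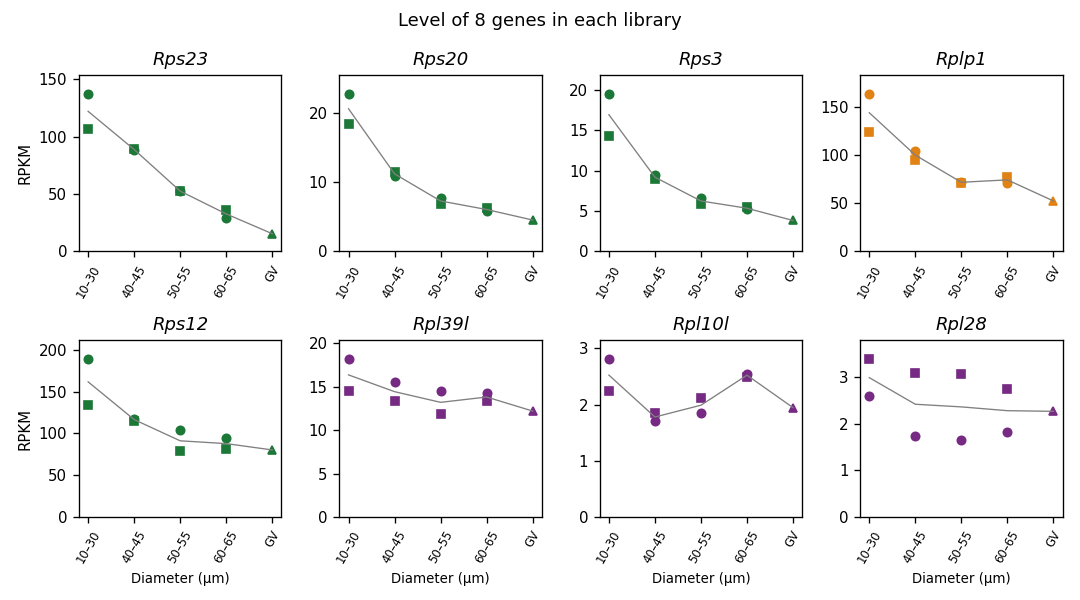
RPKM (y axis, from 0, scaled per gene) of 8 genes by diameter class in µm and in GV oocytes (x axis), with circles for library A, squares for library B, a triangle for the single GV library and a grey line through the class means. Green marks the small subunit, purple the large subunit and orange the stalk. Rps23 falls to 15.4 RPKM in GV oocytes, whereas Rpl10l stays between 1.71 and 2.81 RPKM.

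Step by step the calls were fewer. Between 10–30 and 40–45 µm, 39 of the 79 members were called lower and 0 higher, against 9.84% and 13.2% of all tested genes, and all 79 had a negative estimate (median -0.50, all tested genes 0.00). The 6 largest falls among those called were in Rps3a (-1.06 on the log2 scale), Rps20 (-0.80), Rps3 (-0.79), Rps27 (-0.78), Rpl9 (-0.77) and Rps19 (-0.75). The count was not stable, since it changed when any 1 of the 8 libraries was left out, also a library outside this step. Such a fit has fewer libraries, and the cause of the changed count was not tested. The median difference of the members was -0.28 without 10–30 µm library A, smaller than the -0.43 of the next step in the same fit, and -0.72 without library B, so which of these steps was larger depended on that library. Without scaling between libraries the count was 59, and the split over all tested genes turned from 1386 higher and 1035 lower to 1088 higher and 1521 lower.

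Between 40–45 and 50–55 µm, 7 members were called lower and 0 higher, against 3.1% and 5.65% of all tested genes, with a negative estimate in 78 of 79 (median -0.42, all tested genes 0.01). Among those called the 6 largest falls were in Rps23 (-0.78), Rps20 (-0.64), Rpl38 (-0.59), Rpl8 (-0.57), Rps27a (-0.53), which is made as a fusion with ubiquitin, and Rps2 (-0.48), and the other was Rplp2 (-0.47). Rpl38, known from mice for its part in the translation of Hox mRNAs, was at 38.8 and 31.1 RPKM at 10–30 µm, 23.5 and 24.4 at 40–45 µm, 17.2 and 15.2 at 50–55 µm, 15.1 and 15.1 at 60–65 µm and 12.3 in GV oocytes. Its classes up to 50–55 µm did not overlap, and both libraries agreed closely at 60–65 µm. The count of 7 was 0 without 40–45 µm library B or either 50–55 µm library, 1 without 40–45 µm library A or either 60–65 µm library, and 48 and 47 without 10–30 µm library A and B.

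Between 50–55 and 60–65 µm limma called 0 members in either direction, as it did 0% of all tested genes. At an unadjusted p under 0.05, 2 of the 79 members, Rps23 and Rps6, were lower and 0 higher, beside 720 and 709 of all 10518 tested genes. edgeR on the recovered reads also called 0. The estimate was negative in 70 of 79 members (median -0.13, all tested genes -0.0009), and the largest was that of Rps23 at -0.73 ± 0.16 (SE, adjusted p = 0.149). The estimate was negative at all 3 steps in 70 members, a count that was not made for all tested genes.

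The stalk of the large subunit binds the factors that drive elongation, and its core protein Rplp0 carries dimers of the acidic proteins Rplp1 and Rplp2. Rplp0 was at 88.3 and 70.8 RPKM at 10–30 µm, 56.6 and 59.9 at 40–45 µm, 47.7 and 46.4 at 50–55 µm, 44.2 and 45.1 at 60–65 µm and 38.3 in GV oocytes, a log2 difference over growth of -0.82 ± 0.13 (SE, adjusted p = 0.00095). Rplp1 was at 164 and 124 RPKM at 10–30 µm, 105 and 95.5 at 40–45 µm, 72.5 and 71.2 at 50–55 µm, 71.5 and 77.2 at 60–65 µm and 52.5 in GV oocytes, a log2 difference of -0.93 ± 0.16 (SE, adjusted p = 0.00121). Rplp2 was at 14.7 and 12.5 RPKM at 10–30 µm, 9.72 and 9.66 at 40–45 µm, 6.94 and 7.22 at 50–55 µm, 7.24 and 6.98 at 60–65 µm and 5.54 in GV oocytes, a log2 difference of -0.91 ± 0.12 (SE, adjusted p = 0.00028). In each gene the 10–30 µm libraries lay above all others.

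Several members are paralogues of another member. Rpl10l, a retrogene copy of Rpl10 known for replacing it in male meiosis, was at 2.81 and 2.24 RPKM at 10–30 µm, 1.71 and 1.85 at 40–45 µm, 1.86 and 2.12 at 50–55 µm, 2.55 and 2.50 at 60–65 µm and 1.95 in GV oocytes, and its log2 difference over growth was 0.01 ± 0.14 (SE, adjusted p = 0.939). Its 60–65 µm libraries lay inside the range of the 10–30 µm ones, and the libraries of both classes between lay below them. Its parent Rpl10, which sits near the peptidyl transferase centre and is X-linked, was at 4.90 and 4.42 RPKM at 10–30 µm, 2.87 and 3.50 at 40–45 µm, 2.56 and 2.52 at 50–55 µm, 2.03 and 2.48 at 60–65 µm and 2.03 in GV oocytes and fell by 1.01 on the log2 scale (SE 0.14, adjusted p = 0.00031). Whether the parent and the copy differ in their change was not tested.

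Rpl39l, the testis-enriched form of the exit tunnel protein Rpl39, was at 18.2 and 14.6 RPKM at 10–30 µm, 15.5 and 13.4 at 40–45 µm, 14.6 and 11.9 at 50–55 µm, 14.3 and 13.3 at 60–65 µm and 12.2 in GV oocytes, with a log2 difference of -0.23 ± 0.17 (SE, adjusted p = 0.258). Rpl39 itself was at 38.6 and 27.6 RPKM at 10–30 µm, 32.9 and 24.6 at 40–45 µm, 29.6 and 17.9 at 50–55 µm, 27.7 and 22.4 at 60–65 µm and 20.1 in GV oocytes, with a log2 difference of -0.38 ± 0.28 (SE, adjusted p = 0.26). In both genes library A was above library B in every class. Both 10–30 µm libraries of Rpl39l lay above both of its 60–65 µm libraries, whereas those of Rpl39 overlapped, and neither change passed the threshold in this fit. With a term for the letters the fall of Rpl39 was called and that of Rpl39l was not. Rpl39l was below Rpl39 in every library on the RPKM scale.

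Rpl3l, the form of Rpl3 known from heart and skeletal muscle, was the 1 member that did not pass the minimum and was listed at 0 in all 9 libraries. Rpl3 was at 37.1 and 28.8 RPKM at 10–30 µm, 21.04 and 21.4 at 40–45 µm, 17.6 and 15.96 at 50–55 µm, 14.2 and 15.4 at 60–65 µm and 12.3 in GV oocytes, a log2 difference of -1.13 ± 0.15 (SE, adjusted p = 0.00027). Rps27l, the paralogue of Rps27 that responds to DNA damage, was at 33.5 and 27.6 RPKM at 10–30 µm, 21.5 and 19.6 at 40–45 µm, 15.998 and 14.1 at 50–55 µm, 13.8 and 14.5 at 60–65 µm and 12.3 in GV oocytes, a log2 difference of -1.09 ± 0.14 (SE, adjusted p = 0.00026). Rps27 was at 14.1 and 13.02 RPKM at 10–30 µm, 7.41 and 7.55 at 40–45 µm, 6.17 and 4.16 at 50–55 µm, 5.52 and 4.34 at 60–65 µm and 5.08 in GV oocytes, a log2 difference of -1.45 ± 0.19 (SE, adjusted p = 0.00025). Both members of this pair fell, and Rps27l stood above Rps27 in every library. Rps4x, the X-linked gene for a small subunit protein, was at 80.8 and 59.7 RPKM at 10–30 µm, 49.4 and 46.4 at 40–45 µm, 46.1 and 38.7 at 50–55 µm, 41.6 and 41.3 at 60–65 µm and 40.1 in GV oocytes and had a log2 difference of -0.74 ± 0.17 (SE, adjusted p = 0.00593).

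Besides Rpl39, Rpl39l and Rpl10l, the member not called over growth was Rpl28, at 2.59 and 3.38 RPKM at 10–30 µm, 1.74 and 3.10 at 40–45 µm, 1.64 and 3.08 at 50–55 µm, 1.82 and 2.73 at 60–65 µm and 2.26 in GV oocytes. Its log2 difference was -0.38 ± 0.33 (SE, adjusted p = 0.334), and it is named here because of this result. Library B was above library A in all 4 classes, the reverse of most members at 10–30 µm, and the gap between letters was wider than that between classes. In an alternative fit with a term for the letters the fall of Rpl28 was called.

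Levels of single members ranged widely. The 4 highest means over the 8 growing libraries were those of Rps12 (114 RPKM), Rpl32 (104), Rplp1 (97.6) and Rpl17 (84.7), and the 5 lowest were those of Rpl9 (0.729), Rps19 (1.91), Rpl13 (1.99), Rpl10l (2.20) and Rpl35a (2.21). Rps12, a small subunit protein, was at 189 and 135 RPKM at 10–30 µm, 118 and 115 at 40–45 µm, 103 and 78.7 at 50–55 µm, 94.1 and 81.3 at 60–65 µm and 80.1 in GV oocytes. Rpl9, a protein near the base of the stalk, was at 1.41 and 1.17 RPKM at 10–30 µm, 0.730 and 0.632 at 40–45 µm, 0.566 and 0.429 at 50–55 µm, 0.442 and 0.452 at 60–65 µm and 0.318 in GV oocytes. All 9 genes were called lower over growth other than Rpl10l, from a log2 difference of -0.62 in Rpl17 to -1.48 in Rps19.

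The length used for each gene bore on these levels. The bases by which the authors divided could be recovered from the values, and they came out as a whole number for all 79 members. Rps12 was counted over 476 bases, 24.0% of its span from start to end, Rpl32 over 517 (15.9%), Rplp1 over 495 (39.4%) and Rpl17 over 775 (26.7%). Rpl9 was counted over all 3080 bases of its span, Rps19 over 4685 (86.2%), Rpl13 over 2352 (81.2%) and Rpl35a over 3526 (94.4%), so that introns were inside the length. The split was chosen after these values were seen. The 29 members counted over at least 50% of their span had a median level of 5.48 RPKM, and the 50 counted over less had 27.1 RPKM. The median log2 difference over growth was -1.05 in the first group, with 27 of 29 called lower, and -1.08 in the second, with 48 of 50 called lower. The length is the same in every library, so it cancels in a ratio of RPKM, although the added 0.1 RPKM shrinks the fitted difference of members with a low RPKM. Where introns are inside the length, reads from introns can count too, and their part in the changes was not tested. This holds for Rps20, Rps3 and Rps19 among the largest falls, counted over 94.2%, 76.7% and 86.2% of their span. A low RPKM of a member therefore does not show that its mRNA was rare, and levels of different members are compared here only as the table gives them.

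Near-identical copies were a further limit on levels. The mouse genome holds many processed pseudogenes of ribosomal protein genes, and each read was reported at a single place. A search of each coding sequence against GENCODE transcripts found at least 1 annotated copy, at 95% identity or more over 80% of the length or more, for 73 of the 80 members, with a median of 5 copies and a maximum of 57 for Rpl21, and 95.5% of the copies were annotated as pseudogenes. The 16 tested members with 10 or more copies had a median level of 7.01 RPKM, against 21.1 for the 45 with 3 to 9 and 21.1 for the 18 with fewer. All 16 of the first group were called lower over growth (median log2 difference -1.06), as were 43 of the second (-1.07) and 16 of the third (-0.98). Levels of members with such copies are uncertain, because reads may be split between gene and copy.

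The pseudogenes themselves were in the table. Of 60 rows with a -ps symbol 18 passed, and all 18 were called lower over growth (median log2 difference -0.96), beside 31.5% of all tested genes. Rpl10-ps3 stood at 25.1 and 25.5 RPKM at 10–30 µm, 14.8 and 19.3 at 40–45 µm, 14.9 and 15.7 at 50–55 µm, 11.8 and 13.9 at 60–65 µm and 11.98 in GV oocytes, above Rpl10 in every library, with a log2 difference of -0.97 ± 0.13 (SE, adjusted p = 0.00031). Rpl13-ps3 was at 11.95 and 9.75 RPKM at 10–30 µm, 6.84 and 6.68 at 40–45 µm, 5.29 and 4.46 at 50–55 µm, 4.08 and 4.44 at 60–65 µm and 3.47 in GV oocytes, above Rpl13 in every library too, with a log2 difference of -1.31 beside -1.31 for Rpl13. The 5 largest falls were in Rpl9-ps6 (-1.45), Rpsa-ps2 (-1.34), Rpl13-ps3, Rps6-ps1 (-1.31) and Rpsa-ps10 (-1.29). Whether these reads came from the pseudogenes or from the parent mRNAs was not tested.

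Many ribosomal protein genes carry small nucleolar RNAs (snoRNAs), which guide the modification of ribosomal RNA, in their introns. In GENCODE 29 of the 80 members held at least 1 snoRNA on the same strand, 55 in all and up to 5 in Rpl4. Of these 29 hosts 28 were called lower over growth (median log2 difference -0.93), and of the 50 tested members without a snoRNA 47 were (-1.08). Tested members with a pyrimidine run near the start had a median of -0.98 (29 members), and those without had -1.07 (29 members). These differences between groups of members were not tested.

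Other genes of the same machinery give the setting. Of 7 ribosomal protein genes whose symbols do not follow the pattern, 5 were called lower over growth and 0 higher (median -1.11), beside 31.5% and 31.8% of all tested genes. Among the 5 were Rpl22l1 (-1.52), Rpsa (-1.44), Gnb2l1 (-1.26), the scaffold protein RACK1 on the small subunit, and Fau (-0.88), which encodes Rps30. The other 2 were Rpl36al (-0.33 ± 0.17 (SE, adjusted p = 0.117)) and Rpl7l1 (-0.02 ± 0.15 (SE, adjusted p = 0.909)). Of 15 other TOP mRNAs, chiefly translation factors, 12 were called lower and 1, Eif4b (0.27), higher (median -0.74), to be read against the same shares. Those that fell most were Eef1g (-1.05), Eef1a1 (-0.99), Eef2 (-0.97), Eef1b2 (-0.94) and Tpt1 (-0.79). Eef1a1, the elongation factor that brings aminoacyl-tRNA to the ribosome, was at 390.3 and 333 RPKM at 10–30 µm, 249 and 271 at 40–45 µm, 225 and 214 at 50–55 µm, 176 and 186 at 60–65 µm and 149 in GV oocytes.

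Mitochondrial ribosomal proteins, which serve the separate ribosome of the mitochondrion, are the nearest comparison. Of the 76 tested, 38 were called lower and 4 higher (median -0.36), beside 31.5% and 31.8% of all tested genes, and the largest changes were in Mrpl23 (-1.45), Mrpl20 (-1.15), Mrpl54 (-1.15), Mrps31 (-1.13) and Mrpl30 (-1.09). The 4 that rose were Mrps25 (0.58), Mrpl12 (0.49), Mrpl45 (0.34) and Mrps27 (0.33). Their summed share of all RPKM was 0.578% ± 0.0463 (SD, n = 2) at 10–30 µm and 0.451% ± 0.00220 at 60–65 µm. The difference between the cytosolic and the mitochondrial set was not tested.

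Genes that build the ribosome had called members in both directions, and their counts stand beside 31.5% called lower and 31.8% called higher over all tested genes. Of 19 genes of RNA polymerase I and rDNA transcription 6 were called lower and 2 higher (median -0.16). The subunits and factors that changed most were Taf1d (-1.32), Polr2f (-0.93), Polr2k (-0.75), Ttf1 (-0.73) and the rDNA activator Ubtf, which rose (0.62), as did Taf1c (0.27). Of 45 small subunit assembly factors 12 were called lower and 7 higher (median -0.12). The rRNA methyltransferase gene Fbl fell (-1.46), as did Tsr2 (-0.91), the chaperone of Rps26, while Rcl1 (1.11), Pwp2 (0.96) and Bms1 (0.81) of the small subunit processome rose. Of 45 large subunit assembly factors 18 were called lower and 3 higher (median -0.26), with Mdn1 (-1.20), Nop16 (-1.19), Mak16 (-1.16) and the export adaptor Nmd3 (-0.98) lower and Dkc1 (1.25), the pseudouridine synthase dyskerin, Sbds (0.72), which releases eIF6 from new subunits, and Nle1 (0.40) higher.

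**Figure D4:**
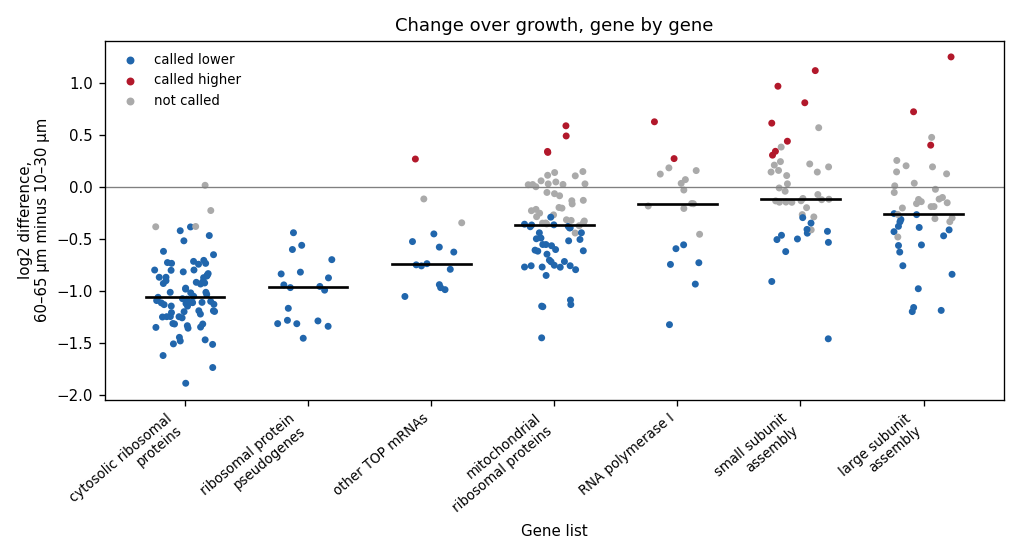
log2 difference between 60–65 and 10–30 µm oocytes (y axis) for each tested gene of 7 lists (x axis), with blue points for genes called lower, red for those called higher, grey for the rest and black bars for list medians. The median is -1.06 for cytosolic ribosomal proteins, -0.36 for mitochondrial ones and -0.12 for small subunit assembly factors.

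Among 18 tested table rows for TOP mRNA control and the mTORC1 pathway 6 were called lower and 3 higher (median -0.14), beside 31.5% and 31.8% of all tested genes. Eif4ebp1, a translation repressor that mTORC1 switches off, was at 7.32 and 7.70 RPKM at 10–30 µm, 2.22 and 4.01 at 40–45 µm, 1.80 and 1.78 at 50–55 µm, 1.06 and 1.36 at 60–65 µm and 0.822 in GV oocytes, a log2 difference of -2.54 ± 0.22 (SE, adjusted p = 3.5e-05). Tsc1, a brake on mTORC1, rose (0.82) and its partner Tsc2 fell (-0.95), and the mTOR complex subunit Mlst8 rose (0.36). The symbol Larp1b, a relative of LARP1, stood on 2 rows of the table, 1 of which rose (1.62) and the other fell (-0.83), so no direction is given for that gene.

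In GV oocytes, which had 1 library and therefore no test, most members were lower again. The GV value was below both 60–65 µm libraries in 65 of the 80 members and above both in 1, against 46.2% and 35.1% of all tested genes. The median log2 difference between GV and the 60–65 µm mean was -0.22 over the 79 members and -0.04 over all tested genes. Rps23 had the lowest ratio, 0.473 times its 60–65 µm mean, and Rpl37 the highest at 1.10 times.

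Starts of the members carried little methylation in the 3 size classes measured. Methylation was averaged over CpG positions with at least 5 reads within 500 bp of the annotated start, where at least 5 such positions were found. By RRBS the median member was at 0.464% and 0.208% at 40–45 µm (67 and 67 members), 0.665% and 0.0684% at 50–55 µm (68 and 63) and 0.504% and 0.311% at 60–65 µm (68 and 65). The medians of the other tested genes lay between 0.301% and 0.575%, so both stayed below 1%. By PBAT at 60–65 µm the median over 78 members was 3.53%, on a median of 405 calls a member, and that of the other genes 3.20%. The highest starts were those of Rps3 at 12.9% and Rpl3l at 10.9%, and the other 76 of the 78 were at 10% or less, as were 93.4% of the other genes. Rps10 and Rps2 had too few positions for a value. The highest member start was 53.3% with positions of at least 1 read (80 members), 24.6% in windows of 250 bp each side and 40.6% in windows of 1000 bp. The retrogene Rpl10l stood at 18.9% in RRBS library B at 50–55 µm but at 1.06% in library A of the same size, and at 3.54% by PBAT.

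Gene bodies gain methylation during oocyte growth where they are transcribed, and short genes leave little body to measure. A body was taken from 1000 bp past the start to the end of the gene and needed 10 CpG positions. By PBAT 39 members had a value, with a median of 34.5% and a range from 4.36% in Rps15 to 68.7% in Rps24, whereas 9258 other genes had a median of 47.8%. At least 50% was reached by 8 of the 39 members (20.5%) and by 45.6% of the other genes. Gene length was not matched between members and other genes, and the body of some members, Rps2 among them, holds a RefSeq start, as described below. Rpl22 (67.1%) and Rpl34 (65.4%) followed Rps24, while Rps2 (5.47%) and Rps9 (5.52%) were near Rps15. The median was 25.2% with positions of at least 1 read and 11.04% with at least 10, over 75 and 6 members, and at 5 reads it was 22.7% over the 31 members that also had a RefSeq start. The members with a value differed between these settings, so read minimum and membership cannot be told apart.

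RRBS, which covers GC-rich sequence, gave a body value for 4 or 5 members a library. Rpl18, Rpl24, Rps10 and Rps2 were measured in all 6 libraries and reached at most 3.48% (Rpl24 in 50–55 µm library A), and Rpl13a reached 4.38% there. With positions of at least 1 read, more members had a value and some were high, up to 54.1% in 50–55 µm library A (8 members, median 12.4%) and 63.4% in 60–65 µm library A (7 members, median 3.45%). With at least 5 reads the other genes had medians of 1.996% and 1.49% at 40–45 µm and 12.2% and 14.1% at 50–55 µm. At 60–65 µm these were 26.2% and 27.1%. With at least 1 read the medians were 6.71% and 1.53% at 40–45 µm, 46.2% and 18.5% at 50–55 µm and 31.4% and 29.2% at 60–65 µm. In 4 members, Rpl13a, Rpl18, Rps10 and Rps2, a RefSeq start lay over 1000 bases inside the gene as the table gives it, so their body as taken here holds that start.

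**Figure D5:**
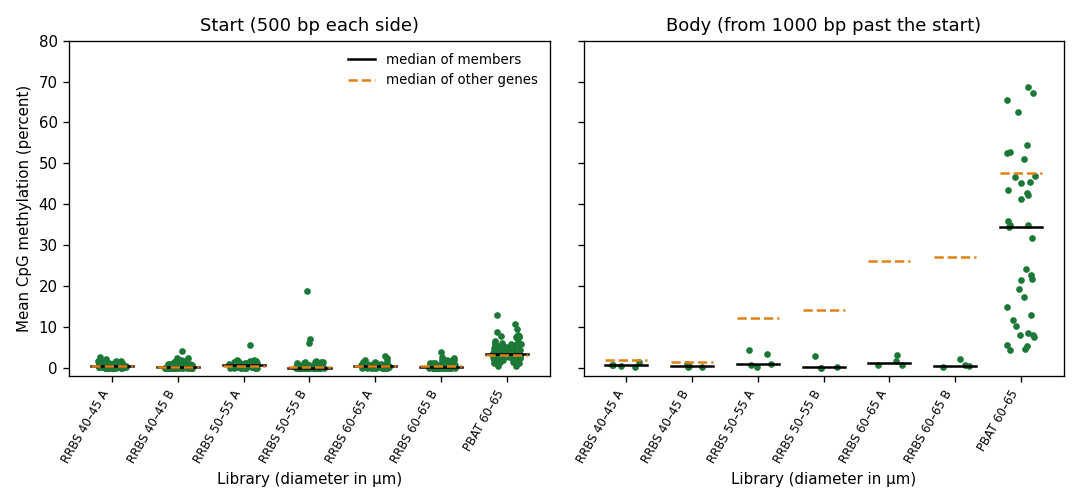
Mean CpG methylation in percent (y axis) of each member at its start (left) and over its body (right) in the 6 RRBS libraries and the PBAT library (x axis), with black lines for the median of members and orange dashed lines for the median of the other tested genes. Median starts in RRBS are below 1%, with 1 point at 18.9% (Rpl10l, 50–55 µm library B), and bodies by PBAT spread from 4.36% to 68.7%.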

How the data were processed

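Total RNA of pooled mouse oocytes was sequenced as strand-specific (dUTP) paired-end libraries in 9 samples (8 from growing oocytes in 4 groups, 1 GV), and DNA methylation in 6 RRBS and 1 PBAT sample. Groups and letters were those of the labels. Per the submitters' processing notes, reads were trimmed with Trim Galore (versions 0.2.8 and 0.3.5 are named), RNA reads were mapped with TopHat2 2.0.9, bisulphite reads with Bismark (0.14.0 and 0.10.0 are named), and the build was GRCm38. The authors deposited expression as RPKM in 1 table of 25965 genes, in which read numbers are divided by gene length and library size. The deposited methylation calls hold, per CpG position, the counts of methylated and unmethylated reads and a percent methylated.

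Libraries were scaled by a trimmed mean of log ratios and log2(RPKM + 0.1) was fitted with limma 3.58.1 (R 4.3.3), with a trend in the variance and a mean per size class, for genes of at least 0.5 RPKM in at least 2 of 8 libraries. Folds on this scale understate the change of low genes. Whole reads (within 0.02 of a whole number) were recovered from the RPKM for 99.9% of these genes and tested with edgeR 4.0.16 as an alternative. Without counts in the table, depth is given as recovered reads in genes, 23220478 to 53958182 a library. Methylation was the mean over positions of at least 5 reads of each position's percent methylated, on libraries of 30000113 to 57319823 calls for RRBS and 99039028 for PBAT. Copies were searched with blastn 2.17.0 and motifs with Python 3.11.15. The fit was tested on simulated data.

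The members, the gene lists and the rules were chosen with earlier results of these data known. Named were up to 6 called members with the largest changes per comparison, the 5 highest and 5 lowest levels, members below the minimum, the stalk proteins, symbols ending in l or x with their parents, and up to 5 genes of each other list. A few values that this rule covers are not reported here. Rpl28, Rpl37, Rps6, genes named as the few that rose or were not called, and those named for methylation, pseudogenes' parents or sequence were added after their values were seen. Alternatives were other pseudocounts, filters, scalings and coverage minimums, a replicate block and leaving out each library.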

Additional observations from a re-analysis of the deposited data

How the results depend on the processing

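The fall over the whole of growth held under every alternative tried, with 69 to 77 of the 79 members called lower (75 as reported). The counts of single steps did not hold in size. Between 10–30 and 40–45 µm the count of 39 was 18 with no filter on low values and 59 with no scaling, and leaving out 1 library gave 5 to 70. Between 40–45 and 50–55 µm the count of 7 was 1 with no filter, and leaving out 1 library gave 0 to 48. Fewer libraries or more genes tested enter some of these fits by construction, and otherwise the cause was not tested. Letters A and B are shared by the size classes, and the deviations of A from the class mean correlated between classes from -0.227 to 0.669 over all tested genes and from 0.304 to 0.725 over the members. Since not every pair of classes was above 0.1 over all genes, the letters were not taken to pair the libraries. With the letters as a replicate block the counts were 60, 28, 0 and 77 for the 3 steps and the whole of growth. The falls of Rpl39 (-0.38) and Rpl28 (-0.38) were then called, while Rpl39l and Rpl10l were not called. edgeR on the recovered reads, chosen after seeing the data, gave 46, 7, 0 and 75, and with the replicate block 62, 36, 1 and 77. The log2 difference of Rpl10l, 0.01, ran from -0.21 without 10–30 µm library B to 0.20 without library A. The ratio of the GV share to that at 60–65 µm, 0.867, was 0.850 when the 100 highest other genes were left out of the total. The median body methylation by PBAT, 34.5%, was 25.2% at a coverage minimum of 1 read and 11.04% at 10 reads, with values for 75 and 6 members in place of 39. Methylation around RefSeq starts was also chosen after seeing the data and gave a PBAT median of 3.35% over 59 members.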
